A study of Xenopus laevis with 64 samples.

Results

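Tail and hindlimb were compared in Xenopus laevis tadpoles kept in an inhibitor of thyroid hormone synthesis, to ask whether the tissue difference holds when synthesis is blocked. Of the 64 arrays in the series, 18 entered the comparison, chosen by their labels: 9 of tail at 48 h of exposure and 9 of hindlimb at 24 h. In each tissue 3 arrays came from tadpoles in PTU (propylthiouracil, 20 mg/L), 3 in MMI (methimazole, 100 mg/L) and 3 in PER (perchlorate, 4 mg/L). Exposure began at NF stage 54, an early stage of metamorphosis, and was continuous. Another 6 arrays, 3 of tail at 48 h and 3 of hindlimb at 24 h, came from control tadpoles of the same experiment that received no inhibitor. A further 9 hindlimb arrays were made at 96 h with the same inhibitors.

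Each array carried RNA of 1 organ from 1 tadpole, and tail and hindlimb came from different tadpoles because they were taken at different times. Per the labels' protocols, only a few tanks supplied the tadpoles of a treatment at a given time, and the sources used here do not say which animals shared one. The p-values therefore measure the spread between animals and not between tanks. Animals that shared a tank are not independent replicates of a treatment, so the p-values may be too small. Tissue and exposure time change together here. The arrays of 1 tissue and time in this experiment are called an array set, and the labels do not say which arrays were scaled together. A difference between the tissues therefore cannot be told apart from a difference between times or array sets. Fewer cells of a type and less RNA per cell also cannot be told apart in RNA of whole organs.

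Thyroid hormone drives amphibian metamorphosis, during which the hindlimb grows and forms its muscle and skeleton while the larval tail is later resorbed. PTU and MMI inhibit thyroid peroxidase, the enzyme that couples iodine to thyroglobulin, and perchlorate blocks the uptake of iodide into the thyroid. Hormone already made can still act for some time after synthesis has stopped. The tail of a tadpole is a swimming organ rich in differentiated muscle, whereas the hindlimb bud at this stage holds many dividing precursor cells.

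The array held 812 cDNA spots in 406 neighbouring duplicate pairs, of which 237 had a gene symbol (230 different symbols) and 169 had none. The endings L and S of a symbol mark the long and short subgenomes of this species. Duplicate spots correlated with r between 0.893 and 0.981 across an array. A pair was above background where its mean intensity exceeded 2 noise SD of the array. In deposited units noise SD was 301 to 746 in tail arrays (median 426) and 456 to 1030 in hindlimb arrays (median 620). Counts of arrays above background in the 2 tissues, here and below, therefore rest on unlike cut-offs and are not measures of expression. By this measure tail arrays had 43 to 59 pairs above background (median 55) and hindlimb arrays 27 to 73 (median 43), with means of 51.8 and 47.1 that differed by 4.67 pairs (two-sided exact permutation p = 0.471). Between 0 and 2 spots of a tail array were deposited as exactly 0, against 0 to 98 (median 44) of a hindlimb array. Of the 406 pairs, 236 were above background on 0 of the 18 arrays and 100 on 1 or 2. The other 70, which were above background on at least 3 arrays, were tested, and 42 of them had a symbol. On these pairs each of the 18 arrays had a higher median correlation with the arrays of its own tissue than with those of the other. The margin was smallest for tail PTU replicate 3, with median r of 0.535 to tail and 0.459 to hindlimb arrays.

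With inhibitors, 33 of the 70 tested pairs differed between tail and hindlimb at a Benjamini-Hochberg adjusted p under 0.05 in limma (47.1%), against 35 at an unadjusted p under 0.05. In tail 20 pairs were higher (28.6%) and 13 lower (18.6%). The higher pairs stood for 9 named genes and 11 pairs without a symbol, and the lower for 10 named genes, with gapdh.S on 3 pairs, and 1 pair without a symbol. For 13 pairs the measured arrays of one tissue did not overlap those of the other (18.6% of the tested pairs). Among them are ppp3ca.S, with values on 2 tail arrays, and ccnd2.L, which not all 9 hindlimb arrays measured. Among the 20 higher pairs hindlimb was above background on 0 arrays for 5 and on at most 1 for 11. Among the 13 lower pairs tail was above background on 0 arrays for 2 and on at most 1 for 3. Pairs above background in only 1 tissue passed the filter through that tissue alone, and their differences are taken against background. The muscle filament gene des.1.S, the glycolytic gene aldoc.L and the tail transcripts thdl17.L and thdl18.S were higher in tail. The cyclins ccnd1.L and ccnd2.L, the replication clamp pcna.S, the repressor gene rest.S and gapdh.S were lower in tail.

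The split of the calls depended on how arrays were brought to 1 scale. Over all tested pairs the median of tail minus hindlimb was 0.18 on the log2 scale after quantile normalization, and 60.6% of the calls were higher in tail. Centring each array on bright pairs moved the median difference to 1.03, with 44 pairs higher and 8 lower (84.6% higher). Bright pairs were the 20 above background on at least 15 of the 18 arrays. They include the 3 gapdh.S pairs, pair 393, pcna.S and mt4.L, all called lower in tail, so this centre is not free of tissue differences. Whether other members of the set balance these was not tested. On the deposited scale the median was -0.46, with 9 higher and 24 lower (27.3% higher), and with each array centred on its rpl8.S pairs it was -0.20, with 15 higher and 19 lower (44.1% higher). Across these scalings and median centring, 17 of the 33 calls kept their sign and stayed below the threshold. Among them 9 were higher in tail, including des.1.S, ppp3ca.S, thdl18.S and aldoc.L. The other 8 were lower in tail: 3 pairs of gapdh.S, ccnd1.L, ccnd2.L, pcna.S, rest.S and pair 393. A further 13 calls kept their sign but not the threshold everywhere, and 3 changed sign. Of the 17 calls kept throughout, des.1.S, the gapdh.S pairs and pairs 391, 392, 393, 398 and 401 lie among pairs 390 to 406, described below. Against hindlimb at 96 h gapdh.S pairs 394 and 402 and pair 393 had the opposite sign. The value of ppp3ca.S came from 2 tail arrays.

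Muscle genes differed in both directions. Of 5 listed muscle genes on the array, 4 were tested, of which 3 were called higher and 1 lower in tail. Over all tested pairs 28.6% were called higher and 18.6% lower. The median difference over the 4 tested was 2.66 on the log2 scale. The gene des.1.S encodes desmin, the intermediate filament protein of muscle. Its normalized log2 intensity in tail was 12.71 at the lowest, 12.98 at the median and 13.73 at the highest, against 9.33, 9.85 and 10.10 in hindlimb. All 9 tail arrays lay above all 9 hindlimb arrays, and des.1.S was above background on 9 tail and 0 hindlimb arrays. The fitted difference was 3.33 (SE 0.17, limma adjusted p = 1.99e-11). Against the dimmest signal above background des.1.S was at least 5.22-fold higher in tail, a point value after quantile normalization. Its pair is among the last 17 pairs of the array, where pairs of gapdh.S disagreed in hindlimb arrays at 96 h, and whether these pairs carry the same probe in every array set was not tested. In hindlimb at 96 h des.1.S was above background on 5 of 9 arrays.

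The gene tpm4.S encodes a tropomyosin, a protein that winds along actin filaments. It read 9.50, 13.27 and 13.64 (lowest, median and highest) in tail and 9.65, 10.67 and 12.12 in hindlimb. The tissues overlapped through 1 tail array, PTU replicate 3, which was lower than every hindlimb array, while the other 8 tail arrays were above 12.7. The difference was 1.98 (SE 0.50, limma adjusted p = 0.0025), and 2.42 (adjusted p = 1.08e-05) without that array. With the deposited scale (0.89, adjusted p = 0.198) and with rpl8.S centring (1.15, adjusted p = 0.112) tpm4.S did not pass.

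The gene ppp3ca.S encodes the catalytic alpha subunit of calcineurin, a calcium-dependent phosphatase active in muscle and nerve. It was measured in tail only on MMI replicates 1 and 2, at 14.33 and 14.49, because the spots of the other 7 tail arrays were blank. In hindlimb with MMI it read 9.60, 9.66 and 9.67, and with PER replicates 1 and 2 it read 12.88 and 13.26. Its difference of 4.76 (SE 0.82, limma adjusted p = 4.62e-04) therefore rested on MMI alone.

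The gene myf5.L encodes a transcription factor that commits cells to the muscle lineage, and it was higher in hindlimb. Its values were 9.34, 9.87 and 11.64 in tail (lowest, median and highest) and 9.52, 11.12 and 12.19 in hindlimb. It was above background on 1 tail array and 6 hindlimb arrays, and the ranges overlapped. The difference was -1.17 (SE 0.35, limma adjusted p = 0.0082), and with bright centring it was -0.47 (adjusted p = 0.273). Another myogenic factor on the array, myf6.L, was above background on too few arrays to be tested.

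**Figure D1:**
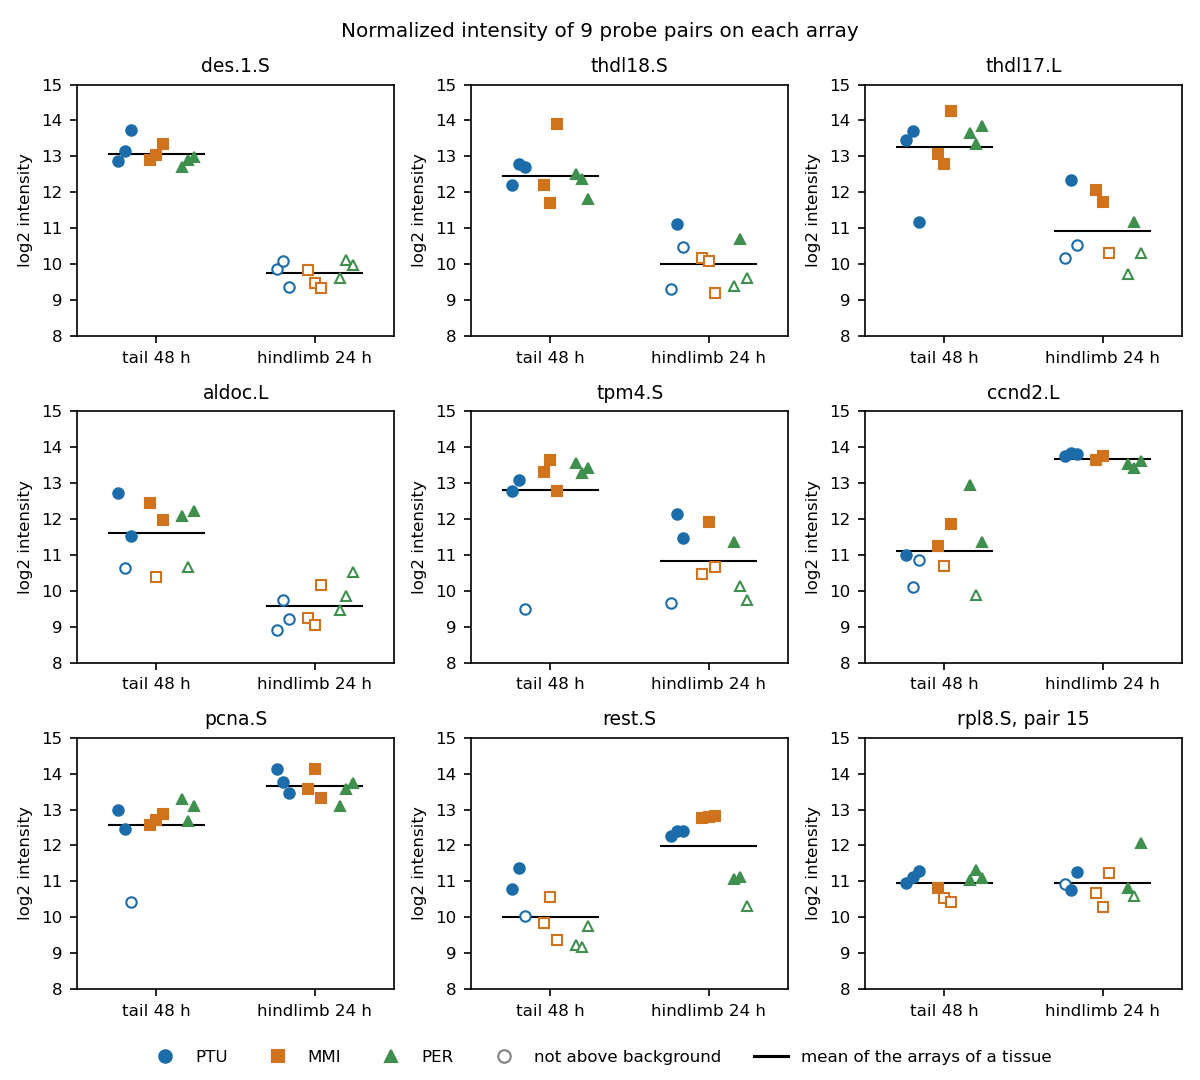
Normalized log2 intensity (y axis) of 9 probe pairs on each tail array at 48 h and each hindlimb array at 24 h, with 1 point per array, the inhibitor given by colour and shape, open points for arrays where the pair was not above background, and a line at the mean of each tissue. The tail arrays of des.1.S (12.71 to 13.73) lie above all hindlimb arrays (9.33 to 10.10), those of ccnd2.L lie below, and those of the rpl8.S pair overlap.

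Of 6 listed thyroid hormone response genes on the array, thdl17.L and thdl18.S were tested. Both were called higher in tail, as were 28.6% of all tested pairs. These transcripts are known from studies of hormone-responsive genes in the tadpole tail. The list does not separate genes that the hormone raises from genes that it lowers. Higher levels in tail therefore do not show a stronger response to hormone. The values of thdl18.S were 11.69, 12.36 and 13.89 in tail (lowest, median and highest) and 9.21, 10.10 and 11.12 in hindlimb. No hindlimb array reached the lowest tail array, and thdl18.S was above background on 9 tail and 2 hindlimb arrays. The difference was 2.45 (SE 0.31, limma adjusted p = 3.31e-06), and it rests on hindlimb levels that were mostly at background.

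The values of thdl17.L were 11.17, 13.47 and 14.26 in tail and 9.71, 10.53 and 12.34 in hindlimb. The overlap came from tail PTU replicate 3, at 11.17, and the other 8 tail arrays were above every hindlimb array. The difference was 2.33 (SE 0.42, limma adjusted p = 1.09e-04), and 2.62 without that array. On the deposited scale it was 1.28 (adjusted p = 0.0685). The other 4 listed members, the proteases fap.L, mmp2.S and mmp9.1.S and the transcription factor gene thibz.L, were not above background on enough arrays to be tested.

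Glycolytic genes differed in both directions. All 6 tested pairs of the list were called, against 47.1% of all tested pairs. Of the 6, 3 were higher and 3 lower in tail, and their median of -0.83 falls between these and describes no gene. The 3 higher pairs were aldoc.L, pkm.S and ldhb.S, and the 3 lower were the pairs of gapdh.S. The gene aldoc.L encodes aldolase C, which splits fructose bisphosphate. It read 10.37, 11.96 and 12.71 in tail (lowest, median and highest) and 8.90, 9.47 and 10.52 in hindlimb. It was above background on 6 tail arrays and 0 hindlimb arrays, and in each inhibitor group replicate 2 was the tail array below background. The difference was 2.05 (SE 0.34, limma adjusted p = 5.66e-05), at least 1.97-fold higher in tail.

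The gene pkm.S encodes pyruvate kinase, the last enzyme of glycolysis. Its tail values were 10.07, 12.62 and 13.34 and its hindlimb values 9.41, 10.23 and 11.17. The low tail values were PER replicate 2 and PTU replicate 3, and the other 7 tail arrays were above all hindlimb arrays. The difference was 1.98 (SE 0.41, limma adjusted p = 5.01e-04), and 1.24 (adjusted p = 0.0534) on the deposited scale.

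The gene ldhb.S encodes the B subunit of lactate dehydrogenase. Its tail values were 14.27, 14.83 and 14.83 and its hindlimb values 13.53, 13.78 and 14.30. Of the 9 tail arrays 6 stood within 0.01 of the highest value that any named pair reached after normalization, so quantile normalization limits how far ldhb.S could differ. The difference was 0.87 (SE 0.15, limma adjusted p = 8.09e-05). It was -0.032 on the deposited scale (adjusted p = 0.891) and 0.23 with rpl8.S centring (adjusted p = 0.227). The call of ldhb.S, and on the deposited scale its sign, thus depended on the scaling. Against hindlimb at 96 h ldhb.S differed by 0.81 (adjusted p = 9.92e-05).

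The gene gapdh.S, for glyceraldehyde-3-phosphate dehydrogenase, is often used as a reference gene and was carried on pairs 394, 397 and 402. Pair 394 read 10.88, 11.67 and 12.45 in tail (lowest, median and highest) and 13.96, 14.49 and 14.83 in hindlimb. For each of the 3 pairs all tail arrays lay below all hindlimb arrays. The differences were -2.87 for pair 394 (SE 0.22, limma adjusted p = 7.14e-09), -2.63 for pair 397 (SE 0.23, adjusted p = 1.76e-08) and -2.53 for pair 402 (SE 0.21, adjusted p = 1.13e-08).

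The 3 gapdh.S pairs agreed in these arrays but not in the later hindlimb arrays. In deposited intensity units their medians were 28279, 26376 and 25972 in hindlimb at 24 h and 1751, 1676 and 1561 in tail, for pairs 394, 397 and 402 in turn. In hindlimb at 96 h the medians were 734 for pair 394, 41018 for pair 397 and 646 for pair 402. At 96 h pairs 394 and 402 were above background on 0 of 9 arrays. The pairs stand among the last 17 of the array, pairs 390 to 406, of which 15 were tested and 12 called, 8 higher and 4 lower in tail. Without these pairs 21 of 55 were called, 12 higher and 9 lower.

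**Figure D2:**
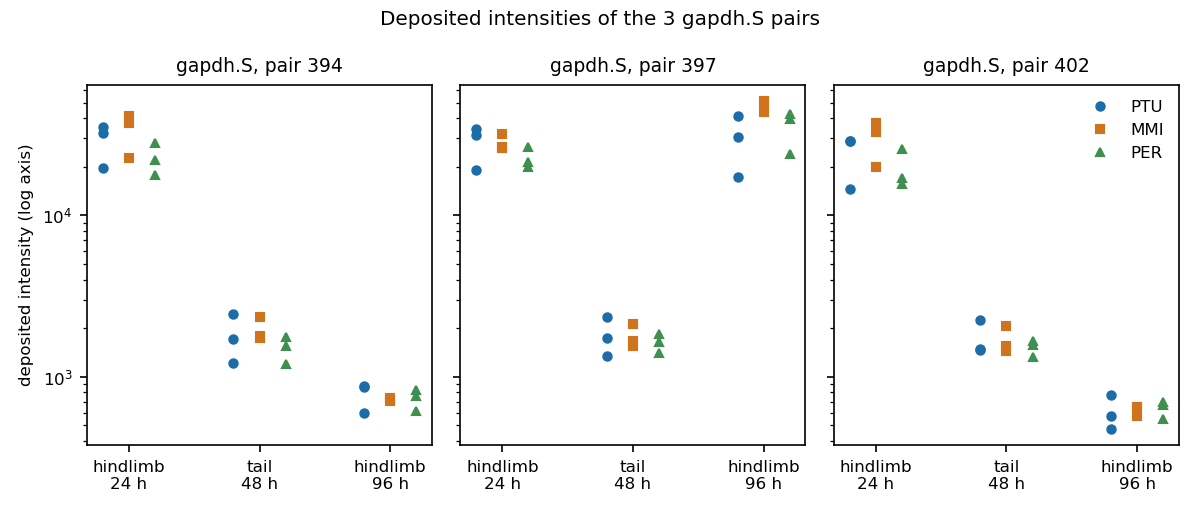
Deposited intensity (y axis, log scale) of the 3 gapdh.S probe pairs on each inhibitor array of hindlimb at 24 h, tail at 48 h and hindlimb at 96 h, with 1 point per array and the inhibitor given by colour and shape. The pairs have like levels at 24 h and in tail, with medians of 25972 to 28279 and 1561 to 1751, whereas at 96 h pair 397 has a median of 41018 and pairs 394 and 402 have medians of 734 and 646.

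Of the listed cell cycle genes, ccnd2.L, ccnd1.L and pcna.S were lower in tail. The array held 12 listed genes, of which 5 were tested, 0 were called higher, 3 lower and 2 not called, with a median difference of -1.07. Over all tested pairs 47.1% were called and 18.6% were called lower. The D-type cyclins, which start the passage from G1 into S phase with their kinases, had the largest differences among the 5. The values of ccnd2.L were 9.87, 10.98 and 12.94 in tail (lowest, median and highest), above background on 5 of 9 arrays. In hindlimb they were 13.42, 13.68 and 13.83 on the 8 arrays that measured it. The 2 tissues did not overlap, and the tail arrays spread wider (SD 0.92, n = 9) than the hindlimb arrays (SD 0.14, n = 8). The difference was -2.57 (SE 0.33, limma adjusted p = 5.34e-06).

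The values of ccnd1.L were 9.73, 10.45 and 13.10 in tail and 11.13, 12.57 and 13.20 in hindlimb. The highest tail value was again PTU replicate 3, and the lowest hindlimb value was PTU replicate 1. The difference was -1.74 (SE 0.41, limma adjusted p = 0.00166), and -2.10 (adjusted p = 8.82e-06) without tail PTU replicate 3.

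The gene pcna.S encodes the sliding clamp of DNA polymerase. Its values were 10.43, 12.70 and 13.30 in tail and 13.10, 13.58 and 14.13 in hindlimb. The difference was -1.07 (SE 0.30, limma adjusted p = 0.00575), and -0.81 (adjusted p = 0.00126) without tail PTU replicate 3, the lowest array. All 9 tail arrays were below the hindlimb mean, although the ranges overlapped.

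For cdk1.S, whose kinase drives entry into mitosis, the difference was -0.62 (SE 0.36, limma adjusted p = 0.176), with 7 of 9 tail arrays below the hindlimb mean. The gene gmnn.S, for geminin, which blocks a second round of replication, differed by -0.45 (SE 0.30, adjusted p = 0.234). Neither passed the threshold, and under bright centring both values turned positive, at 0.26 and 0.44. The remaining 7 listed genes, among them the helicase subunit genes mcm2.L, mcm3.L, mcm4.S and mcm5.L, were above background on too few arrays to be tested.

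Of 7 listed genes for chromatin and transcription on the array, 4 were tested, 0 were called higher, 2 lower and 2 not called. Their median difference was -0.84, and over all tested pairs 47.1% were called and 18.6% were called lower. The gene rest.S encodes a repressor of neuronal genes in cells outside the nervous system. Its values were 9.19, 9.85 and 11.38 in tail (lowest, median and highest) and 10.32, 12.39 and 12.83 in hindlimb. It was above background on 2 tail arrays, both with PTU, and on 8 hindlimb arrays. The difference was -1.98 (SE 0.25, limma adjusted p = 3.39e-06).

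The gene hmgn3.L encodes a protein that binds nucleosomes. It was above background on 0 of 8 tail arrays, at 9.45, 10.31 and 10.42, and on 6 of 8 hindlimb arrays, at 9.61, 11.94 and 13.00. Its difference was -1.59 (SE 0.43, limma adjusted p = 0.00565), at least 1.97-fold lower in tail after quantile normalization. With bright centring it was -0.79 (adjusted p = 0.146). The homeodomain genes nkx2-2.S (0.29, SE 0.24, adjusted p = 0.357) and pou2f1.S (-0.093, SE 0.31, adjusted p = 0.838) did not pass. Under other scalings nkx2-2.S was called lower in tail, at -0.99 on the deposited scale (adjusted p = 0.00955) and -0.73 with rpl8.S centring (adjusted p = 0.0221), and higher with bright centring, at 0.50 (adjusted p = 0.0344). With bright centring pou2f1.S was called higher, at 0.84 (adjusted p = 0.0255). Neither gene has a settled direction.

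Other named genes were called with smaller differences. The gene nfib.L, for a transcription factor of the nuclear factor I family, was above background on 0 tail and 4 hindlimb arrays. Its difference was -1.03 (SE 0.38, limma adjusted p = 0.0332), at least 1.16-fold lower in tail. The gene ywhab.L, for a 14-3-3 adaptor protein, differed by -0.90 (SE 0.32, adjusted p = 0.0255). Neither call was firm. With bright centring the values were -0.35 (adjusted p = 0.473) for nfib.L and -0.074 (adjusted p = 0.893) for ywhab.L. The call of nfib.L was lost in 11 of 33 alternatives. Among these were leaving out replicate 1 or 2 of tail PTU, replicate 1 or 2 of tail MMI, or replicate 3 of hindlimb PTU. Leaving out replicate 1 or 2 of hindlimb MMI or replicate 2 of hindlimb PER also ended it, and values with an array left out ran from -1.33 to -0.83. The call of ywhab.L was lost in 7 of 34 alternatives, among them median centring (adjusted p = 0.066) and the replicate number as a block (-0.86, adjusted p = 0.0502). It was also lost without tail MMI replicate 2, hindlimb MMI replicate 2 or hindlimb PER replicate 2.

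The metallothionein gene mt4.L, whose product binds metal ions, was the 1 tested member of the list for stress and was called lower in tail. Its values were 10.97, 12.90 and 14.08 in tail and 12.28, 13.92 and 14.83 in hindlimb, with wide overlap. The difference was -0.99 (SE 0.34, limma adjusted p = 0.0199). The call ended with bright centring (-0.42, adjusted p = 0.323) and without the inhibitor term (adjusted p = 0.0792). In both tissues the highest arrays were of MMI.

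The calcium list had 2 members on the array, ppp3ca.S and calb1.L. Both were called higher in tail, against 28.6% of all tested pairs. The gene calb1.L encodes calbindin, a calcium buffer. It differed by 0.70 (SE 0.21, limma adjusted p = 0.0102), with 8 of 9 tail arrays above the hindlimb mean. Its sign turned on the deposited scale (-0.38, adjusted p = 0.0522) and with rpl8.S centring (-0.12, adjusted p = 0.481), so calb1.L has no settled direction.

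Genes of protein synthesis were not called after quantile normalization. All 7 tested pairs of the list, 5 of them of the ribosomal protein gene rpl8.S, gave 0 calls, against 47.1% over all tested pairs. Their median difference was 0.075. The rpl8.S pairs differed by -0.021 to 0.29, with SE of 0.16 to 0.24, and their arrays overlapped. Each rpl8.S pair was above background on 7 of 9 tail arrays but on only 4 or 5 of 9 hindlimb arrays. The small differences thus include many hindlimb values that did not exceed the cut-off. The ribosomal protein gene rpl35a.S differed by 0.060 (SE 0.27, limma adjusted p = 0.874). The gene pabpc1.S, for a protein that binds poly(A) tails, differed by 0.17 (SE 0.39, adjusted p = 0.772). These values follow the scaling, since the rpl8.S pairs differed by 1.14 to 1.33 with bright centring and by -0.36 to -0.17 on the deposited scale. With bright centring all 7 pairs of the list were called higher in tail, for example rpl8.S pair 119 at 1.20 (adjusted p = 7.68e-05). On the deposited scale rpl8.S pair 15 (-0.36, adjusted p = 0.00955), rpl8.S pair 119 (-0.29, adjusted p = 0.0237) and rpl35a.S (-0.24, adjusted p = 0.0319) were called lower. Median centring called rpl8.S pairs 34, 212 and 384 higher, at 0.34 to 0.44. In the deposited intensities the 5 rpl8.S pairs had the lowest coefficients of variation within tissues of 25 pairs compared, at 7.50 to 14.2%. How those intensities were scaled is not known, so this does not show that rpl8.S RNA is stable or suits centring.

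The proteasome subunit gene psma2.L differed by 0.30 (SE 0.40, limma adjusted p = 0.576). Its lowest tail array was PTU replicate 3, without which the difference was 0.63 (adjusted p = 0.0983). The globin gene hbd.S, a marker of red blood cells, differed by 0.38 (SE 0.26, adjusted p = 0.234), at 10.67, 11.26 and 12.22 in tail and 10.23, 11.06 and 12.01 in hindlimb. The beta tubulin gene tubb4b.L differed by 0.72 (SE 0.35, adjusted p = 0.11). None of these passed in the main fit. Under other settings hbd.S was called higher in tail in 3 of 35 alternatives and tubb4b.L in 1 of 33. Their highest values over all alternatives were 1.50 and 1.62. The median half-width of a 95% interval over the tested pairs was 0.64, so that differences of that size could be missed.

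Markers of other tissues were thin on the array. The lists for epidermis, immune cells and liver had 0 members. The myelin gene mbp.S, the cartilage collagen gene col2a1.L and the other 4 members of the matrix list were not tested. The limb patterning gene pitx1.L, which marks the hindlimb, and the caspase genes casp8.L and casp9.S were above background on 0 of the 18 arrays. No defining marker of limb was thus measured. For differentiated tail tissue the listed muscle genes des.1.S and tpm4.S were taken, whose restriction to muscle was not tested. The muscle lineage gene myf5.L was lower in tail. The call of tpm4.S was lost on the deposited scale, with rpl8.S centring and against hindlimb at 96 h (0.77, limma adjusted p = 0.327). The pair of des.1.S is one of the last 17 pairs, whose identity across array sets was not tested.

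Pairs without a symbol made up 12 of the 33 calls. The 3 with the largest differences above hindlimb were pair 391 (2.17, SE 0.37, limma adjusted p = 6.83e-05), pair 403 (2.04, SE 0.50, adjusted p = 0.00219) and pair 36 (1.81, SE 0.36, adjusted p = 3.92e-04). Pairs 391 and 403 were above background on 8 and 6 tail arrays and on 0 hindlimb arrays. Against hindlimb at 96 h neither was called, at 1.06 for pair 391 (adjusted p = 0.12) and 0.67 for pair 403 (adjusted p = 0.327), and on the deposited scale pair 403 was at 1.41 (adjusted p = 0.0522). The lower pair, 393, differed by -1.73 (SE 0.24, adjusted p = 1.09e-05). Of the 11 higher pairs, 7 stand among pairs 390 to 406.

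**Figure D3:**
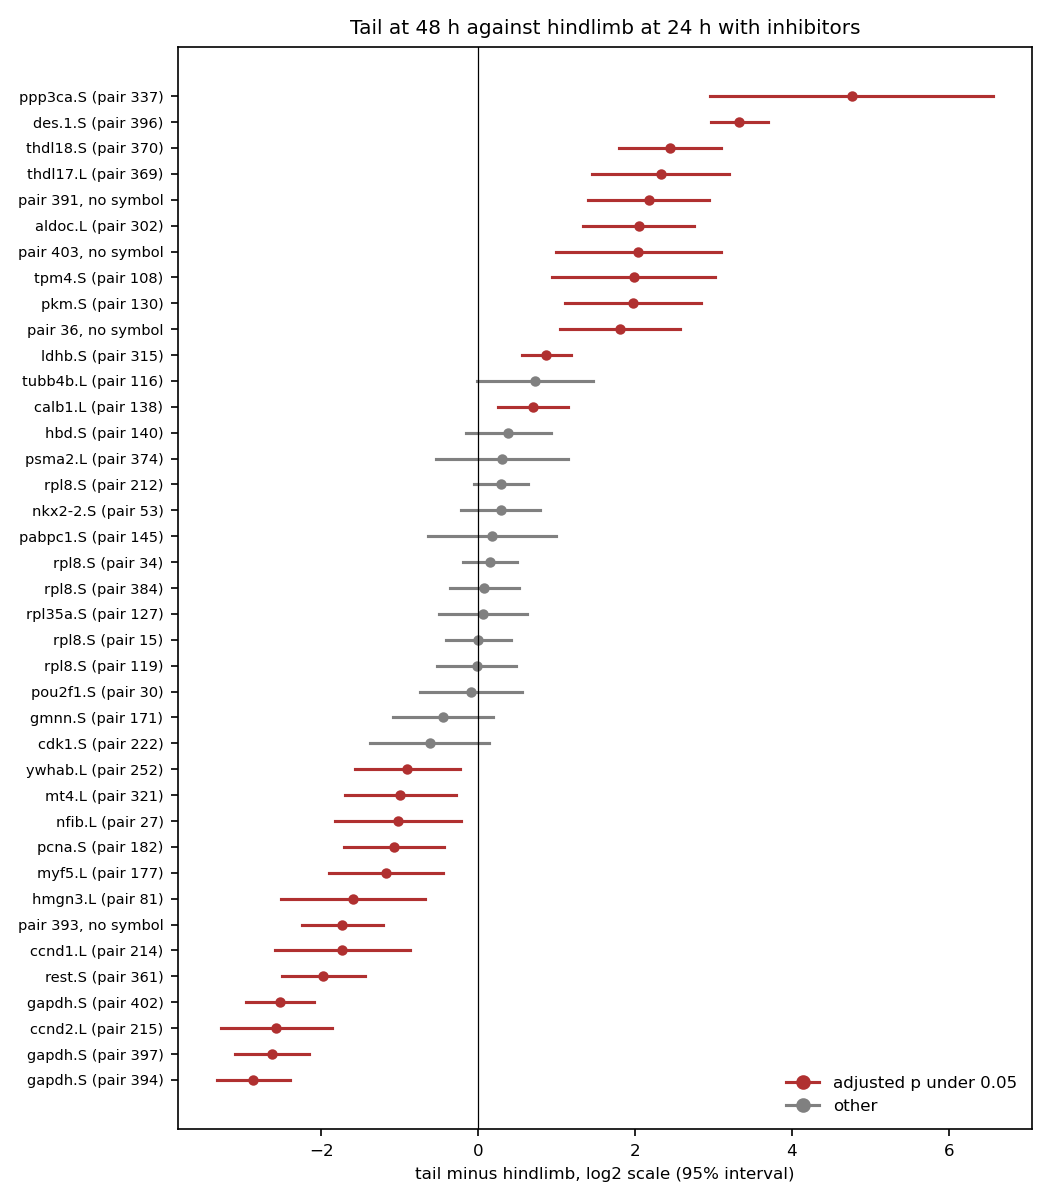
Tail minus hindlimb on the log2 scale (x axis, with 95% intervals) for each named probe pair and the pairs without a symbol that are given by number, in red where the adjusted p was under 0.05. The values run from -2.87 for gapdh.S pair 394 to 4.76 for ppp3ca.S, whose interval is the widest, and the rpl8.S pairs lie near 0.

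The tissue difference was then fitted with each inhibitor, from 3 arrays a tissue. The inhibitors act at different steps and were used at different concentrations, so their values are set side by side. With PTU 17 of 69 pairs were called (24.6%), 10 higher and 7 lower in tail. With MMI 26 of 70 were called (37.1%), 17 higher and 9 lower, and with PER 22 of 69 (31.9%), 14 higher and 8 lower. Of the pairs called in the main comparison, 32 had values for each inhibitor and 32 of these kept 1 sign throughout, against 49 of 69 over all tested pairs. The calls were made on the same arrays pooled over the inhibitors. That choice favours a shared sign, so the shared sign is no separate support. In all, 13 pairs were called with each inhibitor, 7 higher and 6 lower, and 0 were called with opposite signs. The median half-width of a 95% interval was 1.07 with PTU, 1.09 with MMI and 1.07 with PER.

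The gene des.1.S differed by 3.47 with PTU, 3.54 with MMI and 2.97 with PER, and each adjusted p in limma was under the threshold. The values of thdl18.S were 2.26, 2.77 and 2.32 in the same order, and those of aldoc.L were 2.33, 2.11 and 1.70, all called. For thdl17.L they were 1.77 (not called), 2.00 and 3.22. The gene tpm4.S differed by 0.71 with PTU, where it was not called, by 2.23 with MMI and by 3.01 with PER. The PTU values of thdl17.L and tpm4.S include tail PTU replicate 3, their lowest tail array.

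Among the genes lower in tail, gapdh.S pair 394 differed by -2.69 with PTU, -3.02 with MMI and -2.89 with PER, all called. The values of ccnd2.L were -3.15, -2.42 and -2.12, all called. The values of ccnd1.L were -0.90 (adjusted p = 0.409), -2.38 and -1.93, the latter both called. For pcna.S they were -1.83 with PTU, which was called, and -0.96 and -0.44 with MMI and PER, which were not. The repressor gene rest.S differed by -1.62, -2.86 and -1.45, all called.

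An interaction test asked whether the tissue difference varied among the inhibitors. At an adjusted p under 0.05 in limma's moderated F test 0 of 69 pairs were called, and 3 had an unadjusted p under 0.05. The smallest unadjusted p among named genes was that of rest.S (F = 4.32, adjusted p = 0.746). In hindlimb rest.S read 12.76, 12.79 and 12.83 with MMI, 12.27, 12.39 and 12.40 with PTU, and 10.32, 11.08 and 11.12 with PER. In tail it read 9.37, 9.85 and 10.57 with MMI, 10.03, 10.80 and 11.38 with PTU, and 9.19, 9.24 and 9.75 with PER. In hindlimb the PER arrays were thus below the other arrays without overlap. In tail rest.S was above background only on PTU arrays, so its differences with MMI and PER are taken against background.

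Next in order were foxd1.L, a forkhead transcription factor gene (F = 2.66), and ppp2r5e.L, for a regulatory subunit of protein phosphatase 2A (F = 2.40), each with an adjusted p of 0.897. The tissue difference of foxd1.L was -0.35 with PTU, 0.87 with MMI and -0.53 with PER. That of ppp2r5e.L was -0.21, -1.93 and -0.23. The other pairs under an unadjusted p of 0.05 had no symbol, namely pair 403 and pair 36, both with an adjusted p of 0.431. The lack of calls does not show that the inhibitors act alike.

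**Figure D4:**
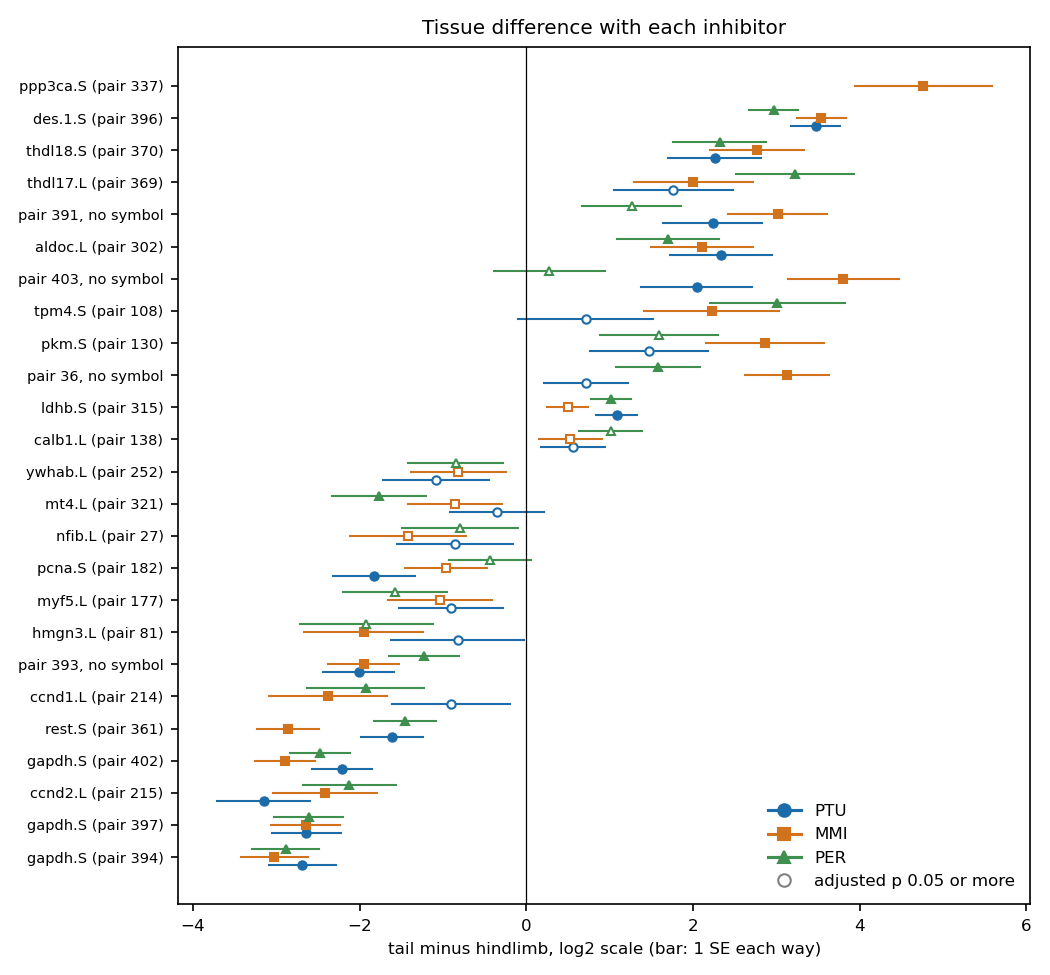
Tail minus hindlimb on the log2 scale (x axis, bars of 1 SE each way) with PTU, MMI and PER for the named pairs and numbered pairs called in the main comparison, with filled points where that inhibitor's adjusted p was under 0.05. The points of des.1.S lie between 2.97 and 3.54, while those of pair 403 run from 0.28 with PER to 3.80 with MMI.

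The tissue difference with inhibitors was set against that of the 6 control arrays in a fit of 24 arrays. In this fit 32 of 77 pairs were called with inhibitors (41.6%) and 26 of 78 in controls (33.3%). The 2 lists shared 21 pairs, which is 65.6% of the inhibitor calls and 80.8% of the control calls, and all 21 had the same sign. All 32 pairs called with inhibitors also had the same sign in controls. The share over all tested pairs was not counted, so neither count of like signs has a background to be read against. The controls share organ, time and array set with the inhibitor arrays of each tissue, so like signs do not set tissue apart from time or array set. The control difference came from 3 arrays a tissue and the inhibitor difference from 9, so their counts of calls have unequal power.

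The gene des.1.S differed by 3.46 in controls (SE 0.42) and by 3.34 with inhibitors. The values for thdl17.L were 2.45 in controls and 2.33 with inhibitors, and those for aldoc.L were 2.79 and 2.06. The cyclin ccnd2.L differed by -3.13 in controls and -2.56 with inhibitors, and ccnd1.L by -2.54 and -1.75. The repressor gene rest.S differed by -2.13 and -1.99, and myf5.L by -1.60 and -1.19. For thdl18.S the control value was 1.53 (SE 0.54) and the inhibitor value 2.46. The 95% interval of that difference ran from -0.36 to 2.23.

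The test of the difference between inhibitor and control arrays called 0 of 77 pairs in limma, whereas 6 had an unadjusted p under 0.05. By unadjusted p the first 3 genes with a symbol were ppp2r5e.L, gapdh.S on pair 394 and foxd1.L. The tissue difference of ppp2r5e.L was 1.08 in controls and -0.79 with inhibitors, a change of -1.87 (95% interval -3.30 to -0.44, adjusted p = 0.567). It was above background on 0 control arrays of either tissue, so that value rests on levels at background. On pair 394 gapdh.S differed by -1.68 in controls and -2.90 with inhibitors (change -1.21, 95% interval -2.19 to -0.23, adjusted p = 0.567), whereas on pairs 397 and 402 the changes were -0.48 and -0.39. The tissue difference of foxd1.L was 1.14 in controls (adjusted p = 0.0474) and -0.016 with inhibitors (change -1.16, 95% interval -2.20 to -0.12, adjusted p = 0.602). It was above background on 2 of 3 tail controls and 0 of 3 hindlimb controls, so its control value is taken against background. The median half-width of a 95% interval for such a change was 1.18, without adjustment for the number of pairs. Calls used an adjusted p, so changes of that size and larger could go uncalled, as the -1.87 of ppp2r5e.L did.

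**Figure D5:**
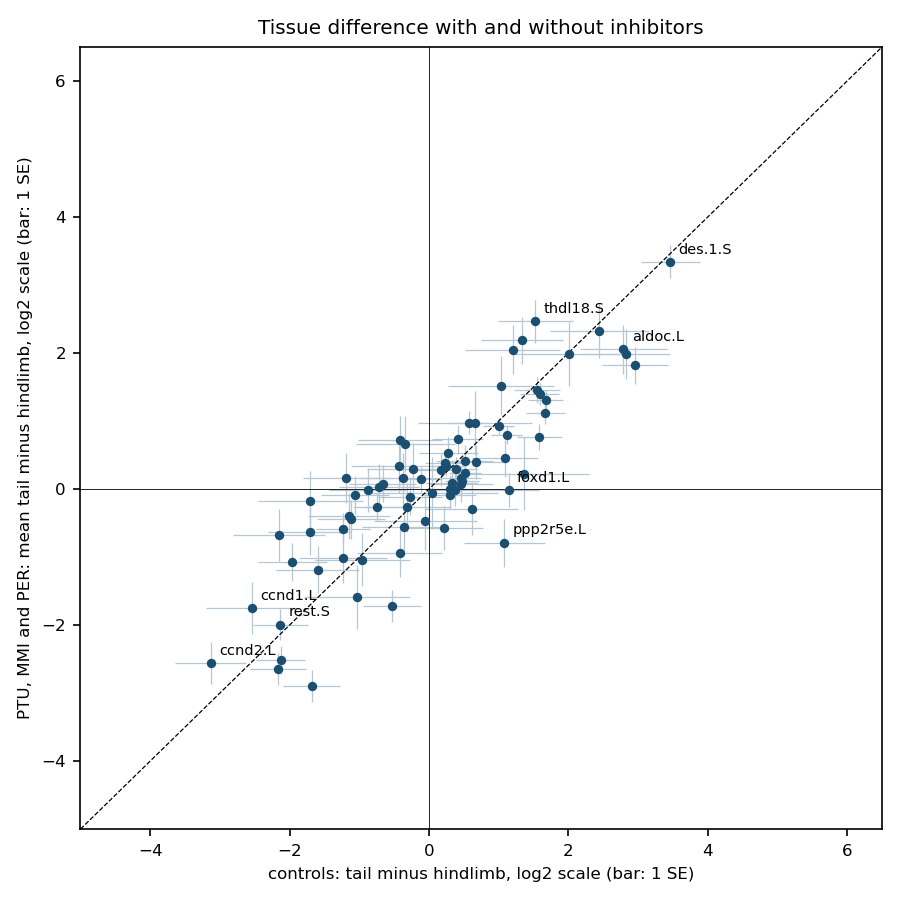
Tail minus hindlimb on the log2 scale in control arrays (x axis) and as the mean over PTU, MMI and PER (y axis) for each tested pair with both values, with bars of 1 SE and a dashed line of equality. The pairs des.1.S (3.46 and 3.34) and ccnd2.L (-3.13 and -2.56) lie near the line at its ends, and ppp2r5e.L (1.08 and -0.79) lies off it.

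The same 9 tail arrays were also set against the 9 hindlimb arrays at 96 h, which share the inhibitors but not the time or the array set of the first hindlimb group. In that comparison 38 of 74 pairs were called (51.4%), 19 higher and 19 lower in tail. Because the tail arrays serve in both comparisons, the values are given side by side. The gene des.1.S differed by 3.33 against hindlimb at 24 h and 2.12 against hindlimb at 96 h. The values were 2.45 and 2.09 for thdl18.S, 2.33 and 3.20 for thdl17.L, 2.05 and 2.31 for aldoc.L, and 1.98 and 1.57 for pkm.S.

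Against hindlimb at 24 h and at 96 h the cyclin values were -2.57 and -2.03 for ccnd2.L and -1.74 and -1.60 for ccnd1.L. The values were -1.07 and -1.24 for pcna.S and -1.59 and -2.42 for hmgn3.L. The mitotic kinase gene cdk1.S, which was not called against hindlimb at 24 h, differed by -1.61 against hindlimb at 96 h (limma adjusted p = 1.26e-04). The gene rest.S differed by -1.98 and -0.74, and tpm4.S by 1.98 and 0.77, the latter with an adjusted p of 0.327.

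Some pairs had opposite signs against the 2 hindlimb groups. The metallothionein gene mt4.L differed by -0.99 against hindlimb at 24 h and by 2.18 against hindlimb at 96 h (limma adjusted p = 1.26e-04). On pairs 394 and 402 gapdh.S differed by -2.87 and -2.53 against 24 h and by 1.36 and 1.35 against 96 h, while on pair 397 it differed by -2.63 and -2.58. Pair 393, which has no symbol, differed by -1.73 and 1.96. The gene calb1.L, at 0.70 against 24 h, was at -0.0083 against 96 h.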

How the data were processed

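The deposited values are background-subtracted spot intensities of P32-labelled arrays on a linear scale, per the labels and the file values, and 35.8 to 50.6% of an array's measured spots lie below 0. No source used here names the scanner, the background method or the scaling. Each set of arrays of a tissue and time has 1 array of whole numbers alone, and whether levels of different sets are on 1 scale is not known. Symbols came from the platform annotation, and for 233 pairs were replaced by those of Xenopus_laevis_v10.1 (names only).

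Intensities were corrected by normexp with an offset of 50, converted to log2 values, quantile normalized over the arrays of each fit and averaged over duplicate spots (R 4.3.3 with limma 3.58.1 and statmod 1.5.0). Noise SD was a scaled median of the sizes of the negative values. Pairs above 2 noise SD on at least 3 arrays were tested by lmFit and eBayes, with tissue and inhibitor as terms. Adjustment followed Benjamini-Hochberg over all tested pairs, with a threshold of 0.05. Normexp acts like an added constant and shrinks differences of dim pairs. A fold written as at least compares the brighter tissue with the lowest signal that exceeded background on the arrays of the other. It is a point value on the quantile-normalized scale without an interval, and another scaling can give a smaller difference. The number of arrays limits the precision. The exact permutation test used scipy 1.17.1. The procedure was tested on simulated data.

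Named are up to 15 genes in each direction by the size of a called difference, all tested members of the 19 gene lists, and up to 3 pairs without a symbol in each direction. In the interaction test and the comparison with controls, the 3 genes with a symbol that rank first by unadjusted p are named. The comparison, its members and the lists were chosen with earlier results of these data known. Alternatives covered scaling, background, filters, blank spots, weights, left-out arrays, the hindlimb time and the replicate number as a block. Same-numbered tail and hindlimb arrays came from different tadpoles, and their deviations from the group means correlated with r from -0.41 to 0.25, so the numbers were not used as pairs. No 2 of the 24 arrays held identical values. Sequences of the probes are not analysed here.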

Additional observations from a re-analysis of the deposited data

Results flagged for a closer look

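Within a tissue, 79 groups of 4 to 9 arrays of the named pairs and of the counts above background were searched for an array far from the others by Dixon's test. It marked 11, where chance marks about 1 group in 20. Of these, 4 were tail PTU replicate 3, the array with the lowest correlation to its tissue. It was the lowest tail array for tpm4.S (log2 intensity 9.50, next 12.77), pcna.S (10.43, next 12.47), thdl17.L (11.17, next 12.79) and psma2.L (10.05, next 11.65). Without it 34 of the tested pairs were called, and 22 with PTU alone.

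In tail, gmnn.S was lowest on MMI replicate 1 (8.11), ldhb.S was lowest on MMI replicate 3 (14.27) and thdl18.S was highest on MMI replicate 3 (13.89). In hindlimb PTU replicate 1 was the highest array for calb1.L (14.72) and the lowest for ccnd1.L (11.13) and for gapdh.S pair 402 (13.26). For gapdh.S pair 397 the lowest hindlimb array was MMI replicate 2 (13.04). The causes were not tested.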

How the results depend on the processing

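The main count of 33 calls ran from 23 to 39 under the other settings, except 52 with bright centring and 21 without pairs 390 to 406, the latter chosen after seeing the data, as were rpl8.S centring and exact zeros taken as blanks. Leaving out each array in turn gave 30 to 35. The replicate number as a block, which does not mark shared animals, gave 33 calls (21 higher, 12 lower). With PTU the count of 17 became 39 with bright centring and 8 on the deposited scale, and ran from 15 to 22 with an array left out. With MMI the count of 26 became 14 on the deposited scale, 16 with no filter on dim pairs and 17 with pairs above background on at least 9 arrays. It was 16 without tail MMI replicate 1 or 2, and ran from 16 to 27. With PER the count of 22 became 9 on the deposited scale, 13 with no filter and 14 with rpl8.S centring. It was 14 without tail PER replicate 3 or hindlimb PER replicate 1, and ran from 14 to 24. Against hindlimb at 96 h the count of 38 became 59 on the deposited scale (4 higher, 55 lower) and 23 with complete pairs only. Fewer pairs were tested under the stricter filters, and the causes of the other changes were not tested. The interaction test and the comparison with controls gave 0 calls under each of their 29 and 35 alternatives.

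Of the 39 named differences, 1214 of 1325 alternatives kept direction and side of the threshold, 33 lost the call, 20 gained one and 58 changed sign. Of the 25 called, 10 kept both under all alternatives. Signs changed as follows. On the deposited scale values were -0.38 for calb1.L, -0.032 for ldhb.S, -0.24 for rpl35a.S, -0.45 for pabpc1.S, -0.99 for nkx2-2.S and -0.66 for psma2.L, and for rpl8.S -0.36 (pair 15), -0.23 (384), -0.26 (34) and -0.17 (212). With rpl8.S centring they were -0.12 for calb1.L, -0.10 for rpl8.S pair 15, -0.19 for pabpc1.S, -0.73 for nkx2-2.S and -0.40 for psma2.L. With bright centring they were 0.26 for cdk1.S, 0.44 for gmnn.S, 0.84 for pou2f1.S and 1.20 for rpl8.S pair 119. With median centring they were 0.31 for rpl8.S pair 119, -0.39 for nkx2-2.S and -0.052 for psma2.L. A floor in place of normexp gave 0.025 for pou2f1.S and 0.013 for rpl8.S pair 119, array weights gave 0.15 for rpl8.S pair 119 and -0.23 for pabpc1.S, and zeros as blanks gave 0.066 for rpl8.S pair 119. Against hindlimb at 96 h they were 1.36 and 1.35 for gapdh.S pairs 394 and 402, 2.18 for mt4.L, -0.0083 for calb1.L, 0.30 for rpl8.S pair 119, -0.77 for pabpc1.S, -0.14 for psma2.L, -0.070 for hbd.S and 1.96 for pair 393. With an array left out, values ran from -0.28 to 0.019 for pou2f1.S, -0.023 to 0.35 for pabpc1.S, -0.041 to 0.25 for rpl35a.S, and for rpl8.S from -0.13 to 0.13 (pair 119), -0.087 to 0.13 (15) and -0.016 to 0.22 (384). The main fit tested only pairs above background on at least 3 of the 18 arrays. Of the 406 pairs, 236 never exceeded background and 100 did so on 1 or 2 arrays.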

Other observations

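The remaining tested genes with a symbol, which belong to no list used above and are named for completeness after their values were seen, were not called in the main comparison of tail with hindlimb. The gene nme2.L, for a nucleoside diphosphate kinase, was above background on 9 tail and 5 hindlimb arrays and differed by 0.44 (SE 0.28, limma adjusted p = 0.22). The gene ncoa2.S, for a coactivator of nuclear receptors, differed by -0.38 (SE 0.36, adjusted p = 0.409), with -1.36 in PTU, 0.22 in MMI and -0.0068 in PER. The gene odc1.L, for ornithine decarboxylase, the first enzyme of polyamine synthesis, differed by 0.34 (SE 0.39, adjusted p = 0.517), and by -1.21 against hindlimb at 96 h (adjusted p = 0.0425). The cyclin gene ccnh.L differed by -0.29 (SE 0.34, adjusted p = 0.517). The gene mamdc2.L differed by -0.46 (SE 0.41, adjusted p = 0.391), and by -1.52 against hindlimb at 96 h (adjusted p = 8.30e-04).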
